A study of Mus musculus with 4 samples.

Results

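Hypoxia response and glycolysis genes were examined in the mouse hippocampus after repeated social defeat stress (R-SDS). The set of 38 genes was chosen by name, with earlier results of these data known. It covers the oxygen-sensing pathway, secreted factors and other genes induced under low oxygen, the enzymes of glycolysis and 2 transporters. Of these, 36 were measured, among 19938 genes with a row of their own on the arrays. Eno1 and Gpi1 had no row that named them alone, so their levels were not analysed here. Where several rows named a gene, the brightest on average over the 4 arrays stood for it. No filter on low values was applied, so that all 36 genes stayed in every count below. All values are log2 RMA values, that is, hybridisation signals after background correction, normalisation and summary over the probes of a transcript, so that a difference of 1 stands for a factor of 2 in signal.

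The R-SDS group consisted of 2 arrays from male C57BL/6JJmsSlc mice of 11 to 12 weeks that had met an aggressive ICR male for 10 min per day on 10 days and had otherwise lived behind a divider beside such a male. The Control group consisted of 2 arrays from mice of the same strain, sex and age range that were housed in pairs in divided cages without defeat. The study selected stressed mice that avoided a social target, whereas the sample labels name only the stress. The paper describes single housing of mice before the stress and does not state separately that the controls were kept so. Tissue was taken some days after the last defeat, once behaviour had been tested. Whole dissected hippocampi were used, so that fewer cells of a type and less RNA per cell cannot be told apart.

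Cells sense oxygen through the prolyl hydroxylases of the Egln family, which mark the alpha subunits of the hypoxia-inducible factors (HIF) for binding by the von Hippel-Lindau protein and for degradation. When oxygen is scarce the alpha subunits escape this mark, pair with Arnt and switch on genes for vessel growth, glucose uptake, glycolysis and acid handling. In the brain, glycolysis is fed by blood glucose, and lactate is exchanged between astrocytes and neurons.

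The arrays correlated at 0.988 to 0.996 over the 21789 rows with a single gene symbol (Pearson, across rows, which are not independent replicates). The interquartile range of all rows followed the replicate number of the sample titles, at 3.37 in R-SDS 1 and 3.34 in Control 1, but 3.11 in R-SDS 2 and 3.06 in Control 2. The difference between the R-SDS 1 and Control 1 arrays (within number 1) and that between the R-SDS 2 and Control 2 arrays (within number 2) are therefore given beside the group differences. The 10 hippocampal neuron markers were present in every array, with mean levels of 8.58 to 8.78 in R-SDS mice and 8.45 to 8.70 in controls. Markers of the choroid plexus, the epithelium that produces cerebrospinal fluid, set R-SDS 1 apart, and 13 such genes had a mean level of 8.50 in R-SDS 1, with 5.61 in R-SDS 2, against 6.12 in Control 1 and 5.51 in Control 2. The 7 measured blood cell markers also averaged highest in R-SDS 1 (5.85), with 5.28 in R-SDS 2, against 5.02 for Control 1 and 5.25 for Control 2.

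No gene of the set passed the test for a difference between R-SDS and control mice. In limma with Benjamini-Hochberg adjustment over all 21789 rows, 0 of the 36 genes had an adjusted p under 0.05, as did 0 of all rows (0%). At an unadjusted p under 0.05, 0 of the 36 genes counted, against 0.468% of all rows higher and 0.546% lower. None reached the study's own cutoffs (beyond 0.5 on the log2 scale at an unadjusted p under 0.05), which 0.147% of all rows passed as higher and 0.193% as lower. The smallest unadjusted p of the set was 0.0534, for Ankrd37. The adjusted p was 1 for each of the 36 genes. An exact permutation test of 2 arrays against 2 cannot give a two-sided p below 0.333, and it was not used for single genes.

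Most differences pointed upwards but were small. The mean was higher in R-SDS mice for 30 of the 36 genes (52.9% of all rows) and lower for 6. The median log2 difference was 0.0762 over the set and 0.0072 over all rows. Both R-SDS arrays lay above both Control arrays for 7 genes, or 19.4%, whereas 9.41% of all rows did so. Both R-SDS arrays lay below both Control arrays for 0 genes, against 9.06% of all rows. The 7 genes were P4ha1, Ankrd37, Adm, Angptl4, Vegfc, Car9 and Ldha. The median of the set was -0.0101 without R-SDS 1 and -0.0120 without Control 2, and the mean was then higher for 17 and 16 genes. It was 0.18 without R-SDS 2 and 0.16 without Control 1, with a higher mean for 30 and 34 genes. The direction of the median thus turned in the first pair of omissions and held in the second. Each omission also leaves the replicate numbers unbalanced between the groups.

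The groups of genes differed in how far they lay from 0. The median difference was 0.22 for 6 secreted vascular factors, 0.17 for 7 other HIF target genes, 0.10 for the 2 transporters, 0.0585 for 14 glycolytic enzymes and 0.0275 for 7 genes of oxygen sensing. Of the 7 genes without overlap, 3 were secreted factors, 3 were HIF target genes and 1 was a glycolytic enzyme. Whether these groups of genes differed from each other was not tested. Brightness also differed between them, with the median gene of the secreted factors at percentile 51.6 of all rows and that of the glycolytic enzymes at percentile 98.0.

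**Figure D1:**
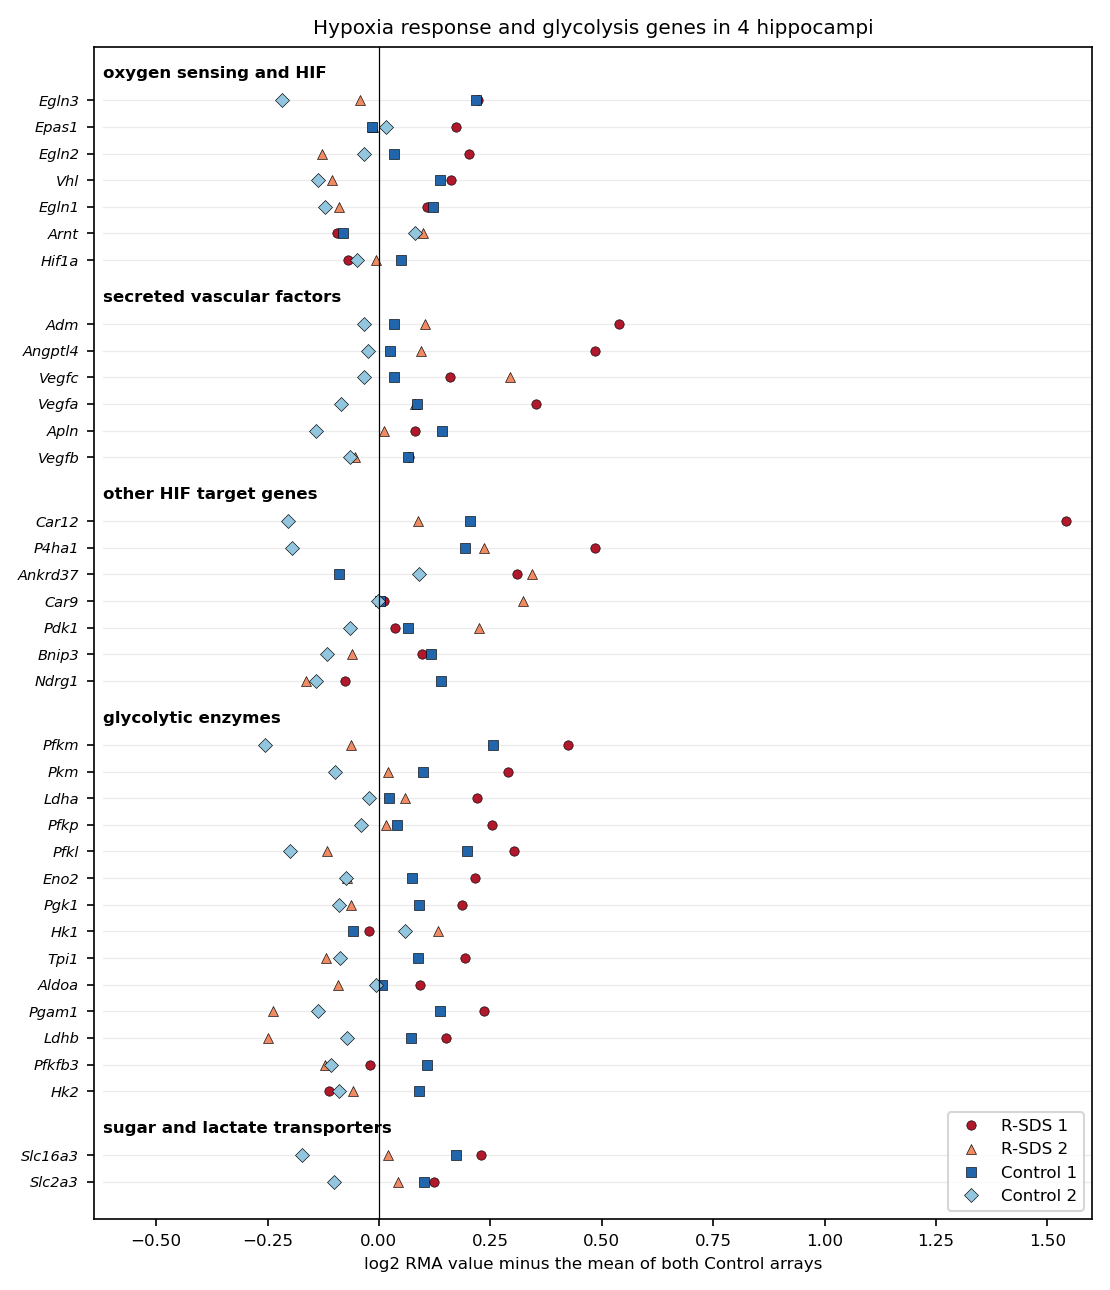
Deviation of each array from the Control mean in log2 RMA units (horizontal axis) for the 36 measured genes (rows, grouped by role and ordered by their difference), with 1 point per array. The R-SDS 1 point of Car12 stands farthest out at 1.54, and for many glycolytic enzymes the points of R-SDS 1 and Control 1 lie to the right of those of R-SDS 2 and Control 2.

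Among the HIF target genes, P4ha1 and Ankrd37 had the clearest separation. P4ha1, which encodes the catalytic subunit of a collagen prolyl 4-hydroxylase, measured 8.11 and 7.86 in R-SDS 1 and 2, against 7.82 and 7.43 in Control 1 and 2. The R-SDS arrays were higher, although R-SDS 2 exceeded Control 1 by only 0.0418. The log2 difference of P4ha1 was 0.36 (SE 0.18, limma unadjusted p = 0.0958), a 1.28-fold higher level, and it was 0.29 within number 1 and 0.43 within number 2. Its value was 0.24 without R-SDS 1 and 0.17 without Control 2.

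Ankrd37, an ankyrin repeat gene known as a HIF target, measured 6.83 and 6.87 in R-SDS 1 and 2, against 6.44 and 6.61 in Control 1 and 2. The R-SDS arrays were close to each other and lay 0.22 above the higher control. The log2 difference was 0.33 (SE 0.14, limma unadjusted p = 0.0534), a 1.25-fold higher level. It was 0.40 within number 1 and 0.25 within number 2, and it stayed between 0.24 and 0.42 when any single array was left out.

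Car12 had the largest difference of the set, and it lay in R-SDS 1. The gene encodes a membrane-bound carbonic anhydrase, which interconverts carbon dioxide and bicarbonate outside the cell and is known from the choroid plexus as well as from hypoxic cells. Car12 measured 9.07 in R-SDS 1 and 7.62 in R-SDS 2, against 7.73 in Control 1 and 7.32 in Control 2. The groups overlapped, since R-SDS 2 lay below Control 1. The log2 difference was 0.82 (SE 0.45, limma unadjusted p = 0.120), at 1.34 within number 1 and 0.29 within number 2. Without R-SDS 1 it was 0.0883, and without R-SDS 2, which leaves R-SDS 1 alone in its group, it was 1.54.

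The array that was high for Car12 was also the array that was high for choroid plexus markers. Each of the 13 measured markers of this epithelium averaged higher in the stressed group, and their median difference was 2.21 within number 1 and -0.0954 within number 2. These markers were chosen with earlier results of these data known. Kcnj13, a potassium channel gene of the choroid plexus, measured 10.75 in R-SDS 1 and 5.56 in R-SDS 2, against 7.34 for Control 1 and 5.83 for Control 2. Ttr, the transthyretin gene, had the largest difference of these markers and was higher in both numbers, at 13.21 in R-SDS 1 and 8.79 in R-SDS 2, against 11.38 for Control 1 and 7.43 for Control 2. The part of these markers in the values of Car12, Vegfa and Adm in R-SDS 1 was not tested. P4ha1, Ankrd37, Vegfc, Car9, Car12 and Pdk1 were higher in R-SDS 2 than in Control 2 by 0.25 to 0.43. Of the 13 choroid plexus markers, 5 were also higher there, by 0.0793 to 1.36, with Ttr highest and Aqp1, a water channel gene, next at 0.53.

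**Figure D2:**
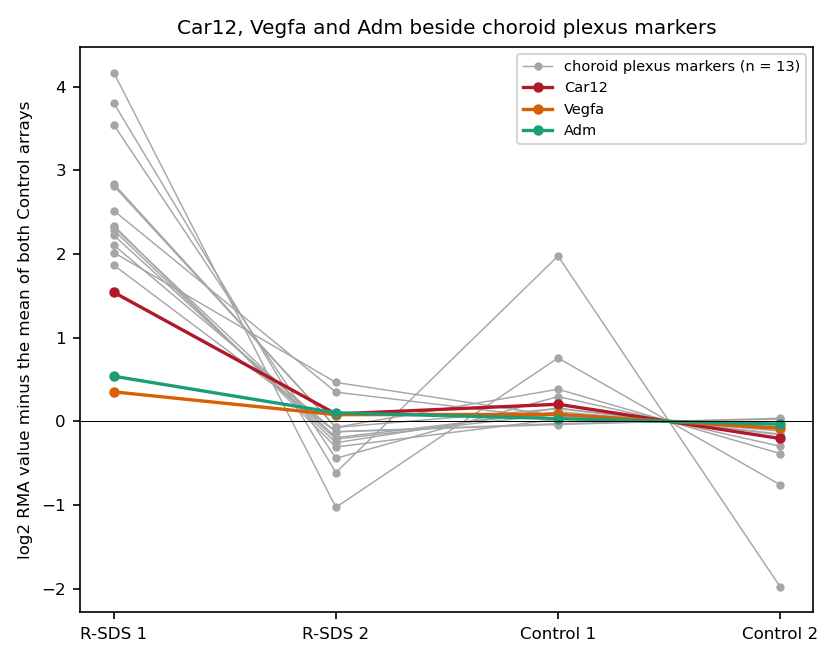
Deviation from the Control mean in log2 RMA units (vertical axis) in each array (horizontal axis) for Car12, Vegfa, Adm and 13 choroid plexus markers, with lines that join the values of a gene and mark no order. Car12 reaches 1.54 in R-SDS 1, with 0.0883 in R-SDS 2, and the markers show the same high array.

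The other HIF target genes differed little or in 1 array. Car9, the carbonic anhydrase widely used as a marker of hypoxic tumour cells, was dim, at 4.55 and 4.86 in R-SDS 1 and 2, against 4.54 and 4.54 in Control 1 and 2. The R-SDS arrays did not overlap with the controls, but R-SDS 1 exceeded the higher of them by only 0.0098, and the row stood at percentile 19.4 of all rows by brightness. The difference of Car9 was 0.17 (SE 0.15, limma unadjusted p = 0.320), and it was 0.0120 without R-SDS 2. Pdk1, the kinase that restrains pyruvate dehydrogenase, measured 7.86 and 8.05 in R-SDS mice, against 7.89 and 7.76 in controls, with a difference of -0.0293 within number 1 and 0.29 within number 2. Bnip3, a mitophagy receptor, differed by 0.0184 (SE 0.15).

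Ndrg1, a stress-responsive gene that oligodendrocytes also express, was the 1 gene with a lower mean under stress among the 7 other HIF target genes. It measured 9.38 and 9.29 in R-SDS 1 and 2, against 9.59 and 9.31 in Control 1 and 2, with a difference of -0.12 (SE 0.15, limma unadjusted p = 0.458). Of 9 measured oligodendrocyte markers, 7 averaged lower under stress, at a median of -0.0662 with 0 past an unadjusted p of 0.05. The sign of Ndrg1 turned without Control 1 (0.0199).

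The stretches before the start sites of 7 genes are shown, because 6 of them are genes without overlap between the groups and Car12 had the largest difference. The core of the element that HIF binds is written ACGTG or GCGTG. Each stretch holds the 250 bases before the most upstream start site listed in RefSeq (GRCm38.p6), read from 5′ to 3′ on the strand of the gene, and capitals mark ACGTG or its reverse complement CACGT, which overlap where the bases read CACGTG.
P4ha1 (chr10:59323046-59323295, plus strand): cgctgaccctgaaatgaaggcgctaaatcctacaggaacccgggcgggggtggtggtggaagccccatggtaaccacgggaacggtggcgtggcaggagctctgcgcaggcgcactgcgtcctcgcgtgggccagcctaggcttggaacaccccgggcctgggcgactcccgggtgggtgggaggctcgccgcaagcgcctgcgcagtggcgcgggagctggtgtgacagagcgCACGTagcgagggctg
Ankrd37 (chr8:45999851-46000100, minus strand): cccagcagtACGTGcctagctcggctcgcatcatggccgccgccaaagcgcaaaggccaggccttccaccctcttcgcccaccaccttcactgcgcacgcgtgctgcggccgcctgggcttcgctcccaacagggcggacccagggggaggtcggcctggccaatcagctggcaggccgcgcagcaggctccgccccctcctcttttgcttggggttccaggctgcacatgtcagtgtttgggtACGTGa
Ldha (chr7:46845554-46845803, plus strand): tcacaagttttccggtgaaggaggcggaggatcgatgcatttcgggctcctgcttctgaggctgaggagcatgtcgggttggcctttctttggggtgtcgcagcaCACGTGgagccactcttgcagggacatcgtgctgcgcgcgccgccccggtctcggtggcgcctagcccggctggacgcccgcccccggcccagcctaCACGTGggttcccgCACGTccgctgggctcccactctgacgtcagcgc
Car9 (chr4:43506776-43507025, plus strand): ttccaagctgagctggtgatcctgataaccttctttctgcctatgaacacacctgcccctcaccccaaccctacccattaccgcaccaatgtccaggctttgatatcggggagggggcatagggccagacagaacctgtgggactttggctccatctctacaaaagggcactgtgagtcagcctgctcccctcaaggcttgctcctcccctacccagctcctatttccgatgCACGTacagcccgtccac
Adm (chr7:110627407-110627656, plus strand): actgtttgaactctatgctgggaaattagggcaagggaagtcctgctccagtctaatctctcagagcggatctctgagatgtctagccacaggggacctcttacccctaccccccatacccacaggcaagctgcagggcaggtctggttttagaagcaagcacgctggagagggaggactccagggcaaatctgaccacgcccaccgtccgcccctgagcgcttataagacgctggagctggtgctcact
Vegfc (chr8:54077282-54077531, plus strand): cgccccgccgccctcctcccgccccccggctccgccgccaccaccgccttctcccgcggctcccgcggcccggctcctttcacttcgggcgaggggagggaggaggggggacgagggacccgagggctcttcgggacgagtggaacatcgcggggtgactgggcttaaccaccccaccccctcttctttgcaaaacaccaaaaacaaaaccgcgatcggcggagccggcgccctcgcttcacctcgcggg
Car12 (chr9:66713436-66713685, plus strand): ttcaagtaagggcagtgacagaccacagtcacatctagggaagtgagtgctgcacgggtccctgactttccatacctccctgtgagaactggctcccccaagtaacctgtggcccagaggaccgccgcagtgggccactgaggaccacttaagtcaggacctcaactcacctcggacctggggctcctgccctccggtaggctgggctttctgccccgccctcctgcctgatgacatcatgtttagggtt

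P4ha1 held 1 ACGTG site, 16 bases before its start, and Ankrd37 held 2, at 241 and 6 bases before the start. Ldha held 3 separate sites and Car9 held 1, at 18 bases. Adm, Vegfc and Car12 held none in these windows, and Adm held 2 GCGTG matches. Windows were listed for 34 genes of the set, including Eno1 and Gpi1, whose levels were not measured. Of these 48 windows, 43.8% held ACGTG on either strand, against 16.6% of all 32851 windows. For GCGTG the shares were 47.9% and 28.2%. The windows of the set were also richer in G and C, with 61.2% of bases against 53.2% in all windows, and no test of the shares was made. Among the 6 genes without overlap that were listed, 4 had a window with ACGTG, as did 18 of all 34.

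Of the secreted factors, Adm and Angptl4 stood highest in R-SDS 1. Adm encodes adrenomedullin, a vasodilator peptide, and measured 5.98 and 5.55 in R-SDS 1 and 2, against 5.48 and 5.41 in Control 1 and 2. The log2 difference of Adm was 0.32 (SE 0.18, limma unadjusted p = 0.123), at 0.51 within number 1 and 0.14 within number 2. Angptl4, a secreted inhibitor of lipoprotein lipase, measured 5.90 and 5.51 in R-SDS 1 and 2, against 5.44 and 5.39 in Control 1 and 2. Its difference was 0.29 (SE 0.17, limma unadjusted p = 0.138), at 0.46 within number 1 and 0.12 within number 2. Both genes were dim, at percentiles 35.1 and 34.4 of all rows. Without R-SDS 1 the differences were 0.10 for Adm and 0.0939 for Angptl4, and after a further quantile normalisation, in which 12.3% of all rows had both R-SDS arrays on top, the groups overlapped for both.

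The VEGF genes encode ligands for receptors on endothelium, and all 3 were higher in the stressed mouse in each number, although the mean difference of Vegfb turned with quantile normalisation or median centring. The sizes of their differences were not tested against each other. Vegfa, the main growth factor of blood vessels, measured 8.33 and 8.06 in R-SDS 1 and 2, against 8.06 and 7.90 in Control 1 and 2. R-SDS 2 and Control 1 were nearly equal, at 8.0600 and 8.0643. The difference of Vegfa was 0.22 (SE 0.16, limma unadjusted p = 0.215), at 0.27 within number 1 and 0.16 within number 2, and it was 0.0801 without R-SDS 1. After a further quantile normalisation its groups no longer overlapped. Vegfc, known for the growth of lymphatic vessels, was dim, at percentile 39.8 of all rows. It measured 5.95 and 6.09 in R-SDS 1 and 2, against 5.83 and 5.76 in Control 1 and 2. Here R-SDS 2 was the higher array, and the difference was 0.23 (SE 0.13, limma unadjusted p = 0.139), at 0.13 within number 1 and 0.33 within number 2. Vegfb measured 8.85 and 8.73 in R-SDS mice, against 8.84 and 8.71 in controls, and its difference of 0.0070 (SE 0.14) turned to -0.0068 after quantile normalisation. Apln, the gene of the peptide apelin, differed by 0.0460 (SE 0.15), with -0.0609 within number 1 and 0.15 within number 2.

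**Figure D3:**
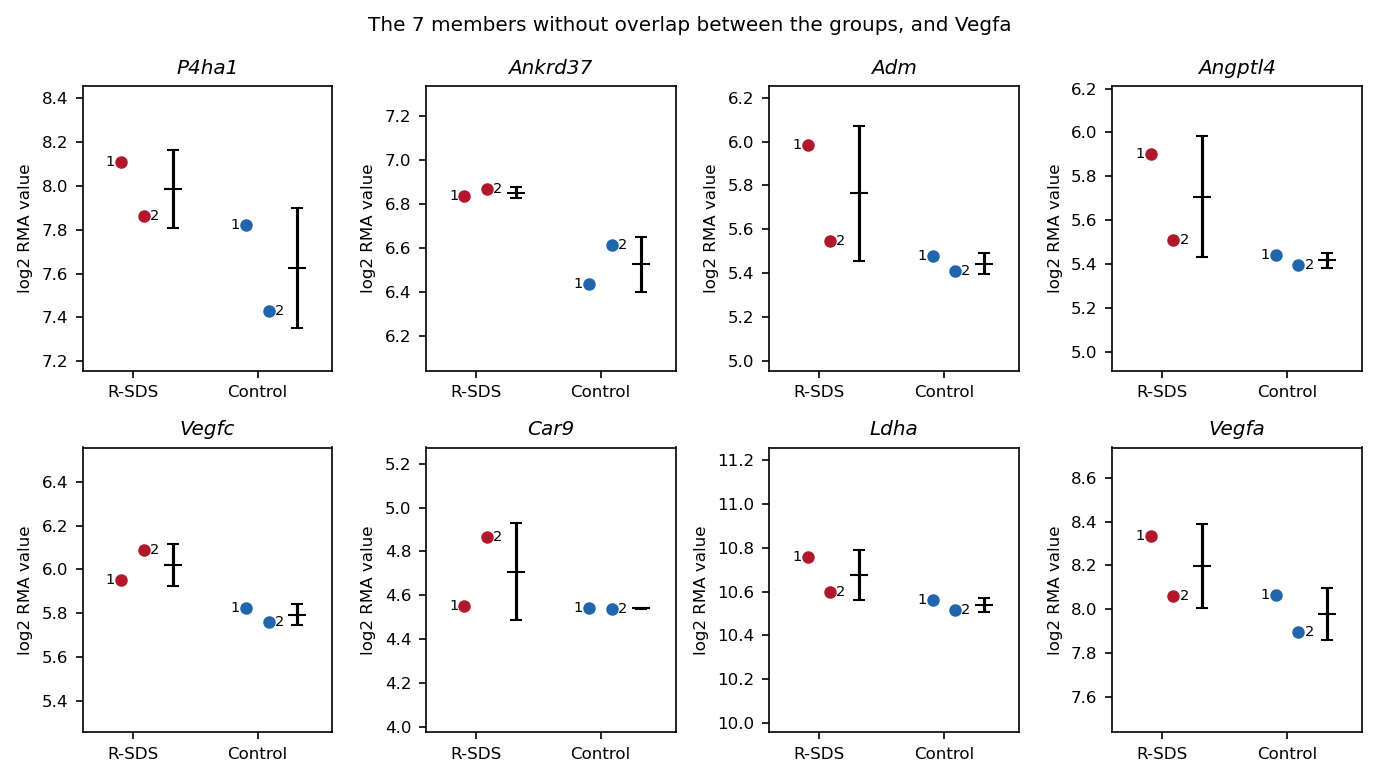
Signal in log2 RMA units (vertical axes of equal span) of P4ha1, Ankrd37, Adm, Angptl4, Vegfc, Car9, Ldha and Vegfa in the R-SDS and Control groups, where points are arrays labelled by replicate number and bars give mean and SD (n = 2). R-SDS 2 lies close above Control 1 for P4ha1, Adm, Angptl4 and Ldha, while Ankrd37 shows a gap of 0.22 between the groups.

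The genes of oxygen sensing stayed within their spread. Hif1a, the alpha subunit found in most cells, measured 8.38 and 8.44 in R-SDS 1 and 2, against 8.50 and 8.40 in Control 1 and 2, with a difference of -0.0385 (SE 0.13). Epas1, the alpha subunit that is prominent in endothelium and astrocytes and is also called HIF-2 alpha, measured 9.80 and 9.61 in R-SDS mice, against 9.61 and 9.64 in controls, and only R-SDS 1 stood apart. The partner subunit Arnt differed by 0.0015 (SE 0.15) and Vhl, the von Hippel-Lindau gene, by 0.0275 (SE 0.17). The sign of Hif1a turned without Control 1 (0.0110), and that of Vhl without Control 2 (-0.11) or R-SDS 1 (-0.11).

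The hydroxylase genes also lay close to 0. Egln1, the main oxygen sensor, differed by 0.0094 (SE 0.15) and Egln2 by 0.0368 (SE 0.16). Egln3, a hydroxylase gene that is itself induced by HIF, was dim, at percentile 39.5 of all rows. It measured 6.06 and 5.80 in R-SDS 1 and 2, against 6.06 and 5.62 in Control 1 and 2. Its difference of 0.0908 (SE 0.19) came from number 2 (0.18), while the value within number 1 was 0.0055. The sign of all 3 hydroxylase genes turned when single arrays were left out, over a range of -0.13 to 0.31 for Egln3. In the oxygen-sensing group, 0 of 7 genes separated the groups, where 9.41% of all rows did so upwards and 9.06% downwards, and 5 of 7 had opposite signs within the 2 numbers, as did 49.4% of all rows.

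The glycolytic enzymes were among the brightest genes of the arrays, and their levels differed more between the replicate numbers than between the groups. For 12 of 14 enzymes the arrays of number 1 lay above those of number 2 in both groups, as they did for 27 of the 36 genes and for 36.7% of all rows. Bright rows shared much of this, since the share was 57.7% among rows above the median brightness, against 23 of the 29 genes of the set that lay there. The median of R-SDS 1 minus R-SDS 2 over the enzymes was 0.26 and that of Control 1 minus Control 2 was 0.18, against a median of 0.0585 for R-SDS minus Control. After a further quantile normalisation, which gives the arrays a common distribution, number 1 was still above number 2 in both groups for 26 of the 36 genes, against 42.6% of all rows. The labels do not say what the numbers mark.

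The upper steps of glycolysis showed this pattern in each phosphofructokinase gene. Pfkm, the muscle-type subunit of the rate-limiting enzyme, measured 10.51 and 10.03 in R-SDS 1 and 2, against 10.35 and 9.83 in Control 1 and 2. The R-SDS mouse was higher within both numbers, by 0.17 and 0.19, but the 2 controls differed by 0.51. The group difference was therefore 0.18 with an SE of 0.24, turning to -0.0753 without Control 2 and to -0.0637 without R-SDS 1. Pfkp, the platelet-type subunit, differed by 0.14 (SE 0.15) and was higher by 0.21 within number 1 and 0.0580 within number 2. Pfkl, the liver-type subunit, differed by 0.0931 (SE 0.21), at 0.10 and 0.0827 within the numbers, and by -0.12 without R-SDS 1 and -0.11 without Control 2. Of the hexokinases, which trap glucose in the cell, Hk1 differed by 0.0543 (SE 0.14) and Hk2 by -0.0844 (SE 0.14). Hk2 was dim, at 5.97 and 6.02 in R-SDS mice, against 6.17 and 5.99 in controls. Pfkfb3, which makes an activator of phosphofructokinase, differed by -0.0709 (SE 0.14) and was lower within both numbers, by -0.13 and -0.0147. The sign of Hk1 turned without R-SDS 2 (-0.0229) or Control 1 (-0.0038), and those of Hk2 (0.0050) and Pfkfb3 (0.0361) turned without Control 1.

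Of the later steps, Ldha and Pkm showed the largest differences. Ldha, the lactate dehydrogenase subunit that favours lactate formation, measured 10.76 and 10.60 in R-SDS 1 and 2, against 10.56 and 10.52 in Control 1 and 2. The groups did not overlap, with R-SDS 2 above Control 1 by 0.0363. The log2 difference of Ldha was 0.14 (SE 0.14, limma unadjusted p = 0.342), at 0.20 within number 1 and 0.0814 within number 2, and it was 0.0588 without R-SDS 1. Ldhb, the subunit that favours lactate use, measured 9.63 and 9.23 in R-SDS 1 and 2, against 9.55 and 9.41 in Control 1 and 2, so that its sign was opposite within the numbers, at 0.0785 and -0.18. Pkm, the pyruvate kinase gene of muscle and brain, differed by 0.16 (SE 0.16) and was higher within both numbers, by 0.19 and 0.12, and by 0.0213 without R-SDS 1. A second, dimmer row of Pkm differed by only 0.0550 (SE 0.15), at 0.0901 within number 1 and 0.0199 within number 2.

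The remaining enzymes differed by less than 0.1. Aldoa (aldolase A) was the brightest gene of the set, at 12.34 and 12.15 in R-SDS mice, against 12.25 and 12.24 in controls, and differed by 0.00037 (SE 0.14). Eno2, the neuronal enolase, differed by 0.0726 (SE 0.16), Pgk1 (phosphoglycerate kinase) by 0.0627 (SE 0.15), Tpi1 (triose phosphate isomerase) by 0.0376 (SE 0.16) and Pgam1 (phosphoglycerate mutase) by -0.0013 (SE 0.20). The sign of each of these 5 genes and of Ldhb turned when R-SDS 1 or R-SDS 2 was left out. Pgk1 and Pgam1 were each named by 3 rows and Bnip3, Hk1, Ldhb and Pkm by 2, and near-identical copies of glycolytic genes elsewhere in the genome may share their probes. The rows of a gene had the same sign of difference except those of Pgam1, at 0.0048, 0.0048 and -0.0013. The 2 Pgam1 rows at 0.0048 were equal in every array, as were 2 of the Pgk1 rows. For Hk1 the row not used had number 1 above number 2 in both groups, opposite to the row used.

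For the 2 transporter genes each R-SDS array exceeded the Control array of the same number, but the groups overlapped. Slc2a3, the glucose transporter of neurons also called Glut3, measured 10.15 and 10.07 in R-SDS 1 and 2, against 10.13 and 9.93 in Control 1 and 2, and differed by 0.0836 (SE 0.14). Slc16a3, the lactate exporter also called Mct4, was dim, at percentile 41.8 of all rows. It measured 6.19 and 5.98 in R-SDS 1 and 2, against 6.13 and 5.79 in Control 1 and 2, and differed by 0.12 (SE 0.17). Both signs turned without Control 2, to -0.0168 and -0.0477.

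Within the replicate numbers, more genes of the set were higher than lower. The R-SDS mouse was higher within number 1 for 27 genes and within number 2 for 28, and within both for 21 of 36 (58.3%), against 27.3% of all rows. It was lower within both for 2 genes, Ndrg1 and Pfkfb3, against 22.7% of all rows. The medians were 0.0911 within number 1 and 0.0657 within number 2, against 0.0064 and 0.0089 over all rows. After quantile normalisation 19 genes were higher within both numbers, against 28.6% of all rows, and after centring each array on its median 16 genes, against 23.2%. Of the 21 genes, 8 were glycolytic enzymes, 5 secreted factors, 4 other HIF target genes, 2 transporters and 2 genes of oxygen sensing.

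**Figure D4:**
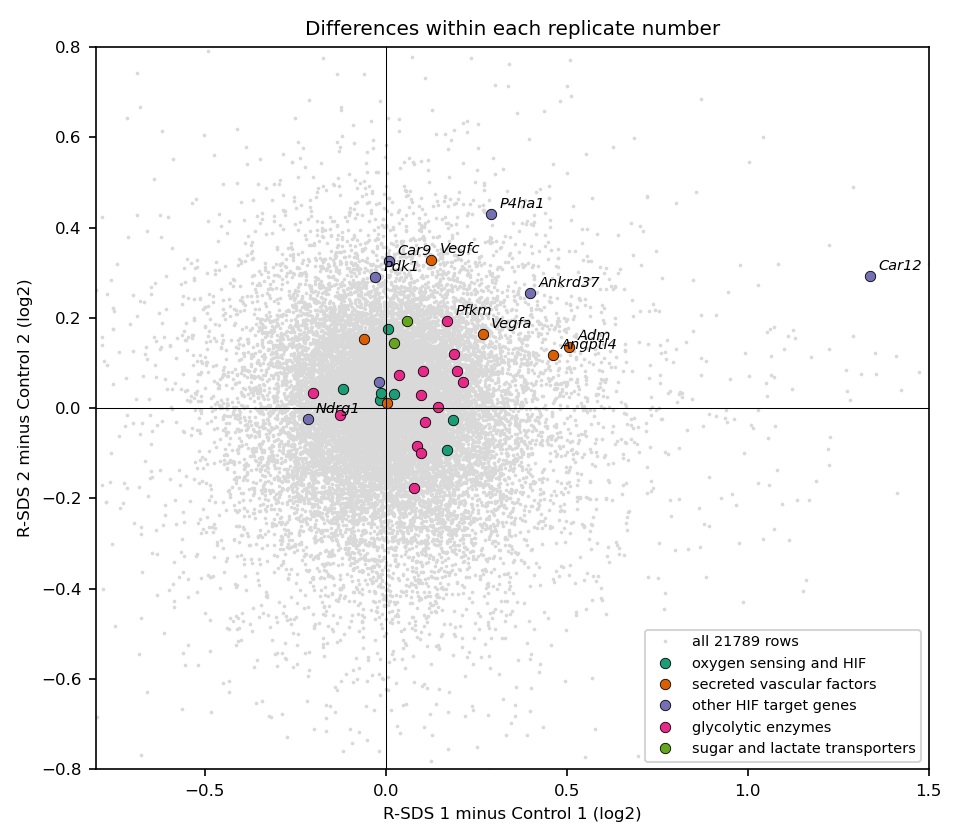
Log2 difference within number 2 (R-SDS 2 minus Control 2, vertical axis) against that within number 1 (R-SDS 1 minus Control 1, horizontal axis) for the 36 genes, coloured by role, over all rows in grey (rows beyond the axes are not drawn). The 21 genes in the upper right part were higher within both numbers, with Car12 far to the right at 1.34 and P4ha1 topmost at 0.43.

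Other genes of the pathway gave no called difference. Of 14 further glycolysis and lactate genes, 0 passed an unadjusted p of 0.05 in either direction, 8 had a higher mean and the median was 0.0317. They were led by the glucose transporter gene Slc2a1 of the blood-brain barrier, at 10.38 and 9.87 in R-SDS mice, against 9.87 and 9.81 in controls (difference 0.29, SE 0.19), and by the muscle enolase gene Eno3 (0.26, SE 0.14). For Slc2a1 the difference was 0.51 within number 1 and 0.0648 within number 2. Of 18 further hypoxia-induced genes, 0 passed, 9 had a higher and 9 a lower mean, and the median was 0.0010. Anln (-0.28, SE 0.18) and the transferrin receptor gene Tfrc (0.22, SE 0.13) lay farthest from 0. Of 12 further HIF regulators, 0 passed and the median was 0.0396. The transcriptional repressor gene Bhlhe40 (0.16, SE 0.19) and the ubiquitin ligase gene Siah2 (0.13, SE 0.13) lay farthest from 0. In this list both R-SDS arrays lay below both controls for 4 genes, which were the coactivator genes Crebbp (-0.12, SE 0.14) and Ep300 (-0.0922, SE 0.13) and the genes Eloc (-0.11, SE 0.13) and Cul2 (-0.11, SE 0.13) of the ligase that holds the von Hippel-Lindau protein, and above them for Siah2. These are 33.3% and 8.33% of the list, against 9.06% and 9.41% of all rows, and the 4 genes were picked after their values were seen. Other genes of the same ligase had higher means, namely Elob (0.0776, SE 0.14), Rbx1 (0.0443, SE 0.13) and Vhl (0.0275, SE 0.17). Of 11 genes for the entry of pyruvate into mitochondria, 0 passed and the median was 0.0240, with Pdk4 (0.13, SE 0.22) and Pdha1 (0.0950, SE 0.15) farthest from 0.

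Receptors of the secreted factors were measured for 9 genes, with 0 past an unadjusted p of 0.05, 6 higher means and a median of 0.0103. Flt1, a receptor of Vegfa and Vegfb, stood apart with 8.46 and 8.16 in R-SDS 1 and 2, against 8.07 and 7.74 in Control 1 and 2. Its difference was 0.40 (SE 0.18), with 0.39 within number 1 and 0.41 within number 2. Calcrl, the adrenomedullin receptor gene, differed by 0.17 (SE 0.19). Flt1 is also an endothelial marker, and the 9 measured endothelial markers had mean levels of 7.49 and 7.17 in R-SDS 1 and 2, against 7.31 and 7.07 in Control 1 and 2, with 6 higher means and a median difference of 0.14. For 10 mural cell markers, 8 means were higher and the median was 0.13, with mean levels of 7.25 and 7.07 in R-SDS mice, against 7.05 and 6.96 in controls. For 10 astrocyte markers the levels were 9.30 and 9.06, against 9.24 and 8.98, with a median difference of 0.0598, and for 9 microglia markers 7.67 and 7.58, against 7.64 and 7.52, with a median difference of 0.0514. The part of these cell types in the values of the vascular factors was not tested.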

How the data were processed

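Total RNA from the hippocampus of 2 R-SDS and 2 control mice was hybridised to Affymetrix Mouse Gene 1.0 ST arrays, 1 sample per array. The authors deposited log2 values, which Affymetrix Expression Console had computed by RMA. The genome build, and which arrays were normalised together, are not given in the sources used here. No detection calls came with the values, and precision is limited by the number of arrays. Sample titles gave the group and the number of each array. P-values reflect how far these samples spread, with the spread of a row moderated towards that of other rows. This spread may be technical in part.

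Of 35556 rows, 21789 had exactly 1 symbol in the platform annotation, 1621 had several and 12146 were not listed. Symbols were checked through Entrez identifiers against RefSeq (GRCm38.p6), and 0 changed. All 21789 rows entered a two-sided limma test (version 3.58.1, R 4.3.3) of R-SDS minus Control with no covariate, and p-values were adjusted by Benjamini-Hochberg over these rows (threshold 0.05). Each SE is moderated across rows (2 residual and 4.07 prior degrees of freedom). The procedure was tested on simulated data. All members were named. Of each further pathway list, up to 2 genes with the largest difference were named, and of marker lists up to 3. Crebbp, Ep300, Eloc, Cul2, Elob and Rbx1 were named after their values were seen. The members and lists were chosen with earlier results of these data known. Alternatives were leaving out each array, the replicate number as a block, quantile normalisation, median centring, a filter on dim rows, an intensity trend, the methods' t-test and the mean of all rows of a gene. Stretches before start sites came from RefSeq (GRCm38.p6), with 34 of 38 genes matched. Plots were drawn with matplotlib 3.10.9.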

Additional observations from a re-analysis of the deposited data

How the results depend on the processing

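With 2 arrays per group, leaving out 1 array moved most counts; the lone array is then assumed to vary like the others. The limma calls at an adjusted p of 0.05 ranged from 0 to 49 of all rows (0 with all arrays) and from 0 to 1 gene of the set, Car12 without R-SDS 2, where rows past the thresholds of the study were 416 higher and 323 lower. Over the 4 omissions these counts ranged from 74 to 416 higher and 67 to 323 lower (32 and 42 with all arrays). Within the set, the median difference ranged from -0.0120 to 0.18, genes at an unadjusted p under 0.05 from 0 to 3 (1.04% to 3.87% of all rows, against 1.01% with all arrays), genes with a higher mean from 16 to 34, and genes without overlap from 9 to 26 higher and 0 to 7 lower. For all rows the share without overlap was 27.3% to 34.0% higher and 25.1% to 30.7% lower with 3 arrays. The sign held in every setting for 12 genes. It turned in at least 1 omission for 24, whose ranges were Hif1a (-0.0880 to 0.0110), Epas1 (-0.0125 to 0.17), Arnt (-0.0951 to 0.0982), Egln1 (-0.11 to 0.13), Egln2 (-0.13 to 0.20), Egln3 (-0.13 to 0.31), Vhl (-0.11 to 0.17), Vegfb (-0.0576 to 0.0717), Apln (-0.0953 to 0.19), Bnip3 (-0.0988 to 0.14), Ndrg1 (-0.26 to 0.0199), Hk1 (-0.0229 to 0.13), Hk2 (-0.17 to 0.0050), Pfkl (-0.12 to 0.30), Pfkm (-0.0753 to 0.44), Pfkfb3 (-0.18 to 0.0361), Aldoa (-0.0920 to 0.0928), Tpi1 (-0.12 to 0.19), Pgk1 (-0.0619 to 0.19), Pgam1 (-0.24 to 0.23), Eno2 (-0.0712 to 0.22), Ldhb (-0.25 to 0.15), Slc2a3 (-0.0168 to 0.18), Slc16a3 (-0.0477 to 0.30).

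The replicate number as a block gave 3 genes at an unadjusted p under 0.05 (P4ha1, Car12 and Ankrd37), against 4.81% of all rows. At an adjusted p under 0.05 it gave 0 genes. At the thresholds of the study it gave 54 rows higher and 46 lower, against 32 and 42 without it. The block changed no other count of the set. Deviations from the group means correlated at 0.52 between arrays of the same number, but the labels do not say that a number marks a pair. Quantile normalisation gave 1 gene at an unadjusted p under 0.05 (Ankrd37; 1.59% of all rows), 1 gene below both controls (Ndrg1; 9.43% of all rows) and a median of 0.0730 within number 1; 5 of the 7 genes without overlap remained, Adm and Angptl4 were lost, and Vegfa and Pfkp were added. Median centring gave 0.0638 within number 1. The filter on dim rows left 29 genes, with a median of 0.0543, 1 at an unadjusted p under 0.05 (0.303% of the rows kept) and 3 higher without overlap (806 of the 10895 rows kept), and 5 rows higher and 1 lower at the thresholds of the study. The methods' t-test counted 6 higher and 13 lower rows at these thresholds, with 0 after adjustment. The signs of Arnt (-0.0043 and -0.0131), Vegfb (-0.0068 and -0.0076) and Aldoa (-0.0130 and -0.0142) turned with quantile normalisation and median centring, that of Egln1 (-0.0052) with centring and that of Pgam1 (0.0028) with the mean of its rows. The intensity trend changed no sign and no count of the set. The cause of these changes was not tested.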
